A study of Saccharomyces cerevisiae with 8 samples.

Results

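The deposited mutation rates were used to set agelastatin A (AglA) against cycloheximide (CHX) on the ribosomal RNA (rRNA) of budding yeast at one molar dose, 1.0 mM AglA and 1000 µM CHX. The members were the columns of these 2 libraries, chosen by their titles from 8 libraries in all. Both came from purified 80S ribosomes that were given a drug and then 90 mM dimethyl sulfate (DMS) for 8 min. Also used were ribosomes with DMS and no addition, ribosomes with DMS and dimethyl sulfoxide (DMSO), a library without DMS, and the lower doses of each drug (0.5 mM AglA, and 10 and 50 µM CHX). The labels name Saccharomyces cerevisiae but neither the solvent of CHX nor how many ribosome preparations were used. Each condition was 1 library, so no p-value is given. Read depth is unknown, and no counting interval can be attached to a rate. The table held 5475 nucleotides in 4 rRNAs.

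Both drugs stop translation elongation on the large subunit, in neighbouring functional pockets. Peptide bonds form in the peptidyl transferase centre of 25S rRNA, where the incoming aminoacyl-tRNA sits in the A site and the growing chain is held on the tRNA in the P site. A spent tRNA leaves through the E site, and its 3′ end occupies the pocket that CHX, a glutarimide made by Streptomyces, is known to enter. AglA is a brominated pyrrole-imidazole alkaloid of marine sponges. DMS adds methyl groups to the Watson-Crick edge of unpaired A and C. The reverse transcriptase used here reads through such a base and misincorporates, so a low mutation rate at a normally reactive base marks a base that is paired, buried or covered.

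The nucleotides on which the comparison turned are shown in their rRNA context, 5′ to 3′, with 15 nucleotides on either side of the one that names the line and the nucleotides discussed in capitals. The first 4 stretches lie in domain V of 25S rRNA, the fifth holds a cytidine lower with CHX, and the last 3 hold nucleotides at which DMSO and no addition also differed. They were read from the deposited table, and coordinates are those of the first annotated rDNA copy in build sacCer3 (R64), on the minus strand. The table does not separate the rDNA copies.
25S C2764, with A2762 (chrXII:452403-452433, RDN25-1): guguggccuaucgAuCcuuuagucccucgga
25S C2821, with A2820 (chrXII:452346-452376, RDN25-1): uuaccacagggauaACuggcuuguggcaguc
25S U2875 (chrXII:452292-452322, RDN25-1): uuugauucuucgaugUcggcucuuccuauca
25S A2941, with C2942 (chrXII:452226-452256, RDN25-1): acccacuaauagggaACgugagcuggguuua
25S C959 (chrXII:454208-454238, RDN25-1): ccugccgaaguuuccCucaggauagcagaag
25S C439 (chrXII:454728-454758, RDN25-1): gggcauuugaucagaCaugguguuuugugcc
25S A847 (chrXII:454320-454350, RDN25-1): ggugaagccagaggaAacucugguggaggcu
18S A1132, with A1131 and A1133 (chrXII:456586-456616, RDN18-1): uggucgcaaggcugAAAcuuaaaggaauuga

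At 1 mM the drugs gave similar rates at nearly every reactive base, and differed most at 2 cytidines of domain V that lie 57 nucleotides apart, in opposite directions. C2821, in the peptidyl transferase centre, was 17.8 times as reactive with CHX as with AglA. C2764, in the E site pocket, was 210 times as reactive with AglA as with CHX. The rate of C2821 was 0.221% in the AglA library and 3.92% in the CHX library. Drug-free ribosomes had 5.68% there with no addition and 5.87% with DMSO, and the library without DMS had 0.0921%. At 0.5 mM AglA it was 0.180%, and at 10 and 50 µM CHX 3.99% and 4.23%. Every drug library was thus below both drug-free ones, the CHX libraries moderately and the AglA libraries close to background. The rate of C2764 was 13.3% with AglA, a little above the 12.9% and 12.7% of no addition and DMSO. At 0.5 mM AglA it was 11.96%. With 10, 50 and 1000 µM CHX it was 0.724%, 0.234% and 0.0633%, lower at each higher dose. The last is below the 0.112% of the library without DMS, so the ratio of 210 has a denominator at the level of background mismatches.

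The comparison was run on every A and C whose rate averaged 0.5% or more in the 7 libraries with DMS, 514 nucleotides in all (381 A and 133 C). Their median rate was 1.60% with AglA and 1.44% with CHX, a median log2 difference of 0.15. To remove this shift, differences are given as the log2 of AglA over CHX after 0.1 percentage points were added to each rate and each library was centred on its median over the 514. On this scale C2821 was at -3.80 and C2764 at 6.21. Calls were made by size alone. At 2-fold, 3 nucleotides were lower with AglA than with CHX (0.584% of those tested), C2821, A847 and C439, and 1 was higher (0.195%), C2764. At 1.5-fold, 10 were lower (1.95%) and 3 higher (0.584%). Without centring only C2821 was past 2-fold lower, and the 1.5-fold counts were 4 lower and 10 higher, so the balance of directions depends on that step, while C2821 and C2764 stayed at -3.65 and 6.35.

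**Figure D1:**
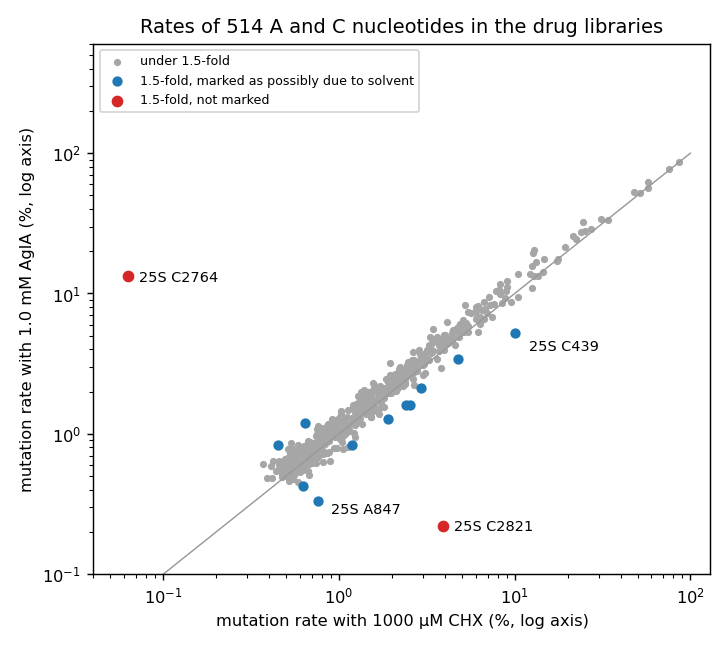
Each point is 1 of the 514 tested nucleotides, with its mutation rate (%) with 1000 µM CHX on the x axis and with 1.0 mM AglA on the y axis, both on log axes, and the line marks equal rates. C2764 (0.0633% and 13.3%) and C2821 (3.92% and 0.221%) lie far from the band that holds the other nucleotides, and the other 11 past 1.5-fold on the centred scale lie along its edge.

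The 2-fold and 1.5-fold calls apart from C2821 and C2764 all had a counterpart between the drug-free libraries. A nucleotide was marked as possibly due to solvent when DMSO minus no addition had the same sign as AglA minus CHX and at least 50% of its size. This mark fell on 11 of the 13 nucleotides past 1.5-fold, that is, on all except C2821 and C2764. It also fell on 297 of the 501 nucleotides under 1.5-fold (59.3%). A mark is therefore common among reactive bases of either kind. The drug comparison and the DMSO comparison share no library.

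C439 of 25S, in domain I, had 5.21% with AglA and 9.99% with CHX, and 4.93% with DMSO against 11.4% with no addition. The lower doses gave 4.66% with AglA, and 8.94% and 10.3% with 10 and 50 µM CHX. The difference between the drugs was -1.07 and that between the drug-free libraries -1.13. A847 of 25S, in domain II, had 0.331% with AglA and 0.760% with CHX, beside 0.385% with DMSO and 0.821% with no addition, for differences of -1.15 and -0.87. The lower doses gave 0.270% with AglA, and 0.609% and 0.707% with 10 and 50 µM CHX. At both bases each drug library stood beside one drug-free library, AglA beside DMSO and CHX beside no addition. A847 had the lowest rates of the pair, and with 1 percentage point added to the rate in place of 0.1 its drug difference was -0.50.

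The other 7 nucleotides lower with AglA were adenosines, 6 of them in 18S rRNA. Of the 514 tested nucleotides, 381 were A and 199 lay in 18S. Without centring only A971 of the 7 stayed past 1.5-fold, at -0.63. The other 6 were then at -0.45 to -0.56. In the central domain of 18S, A971 had 1.61% with AglA and 2.54% with CHX (1.28% with DMSO and 2.78% with no addition), a difference of -0.77. A929 and A1133 of that domain were at -0.60 and -0.62. A1133 ends a run of 3 adenosines that differed together, since its neighbours A1131 and A1132 were at -0.57 and -0.55, just short of the 1.5-fold bound of 0.585 on the log2 scale. Both neighbours also had lower rates with DMSO than with no addition, at -0.54 and -0.61.

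In the 3′ minor domain of 18S, which holds helix 44, the long helix that carries the decoding site, A1655, A1746 and A1671 were lower with AglA. A1655 had 1.27% with AglA and 1.91% with CHX, against 1.36% with DMSO and 2.27% with no addition. A1746 had 1.60% and 2.40% with the drugs, and 1.81% and 3.12% without. A1671 had 0.830% and 1.19%, and 0.831% and 1.19%, so each drug library matched one drug-free library to within 0.01 percentage points. The drug differences at the 3 were -0.70, -0.70 and -0.62, and the DMSO differences -0.64, -0.70 and -0.40. At A1671 the gap between -0.62 and -0.40 comes from centring, since the rates of both pairs were alike. Its drug difference without centring was -0.47. The last of the 7, A2049 in domain IV of 25S, had 3.40% with AglA and 4.77% with CHX (-0.63), and 3.47% with DMSO and 5.26% with no addition (-0.53).

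The nucleotides higher with AglA, other than C2764, were both cytidines of 25S. C3350, in domain VI, had 1.19% with AglA and 0.637% with CHX, and 1.32% with DMSO and 0.874% with no addition. C482, in domain I, had 0.830% and 0.450% with the drugs, and 0.871% and 0.684% without. Their drug differences were 0.67 and 0.61 and their DMSO differences 0.60 and 0.37. Both were lower in all 3 CHX libraries than in every other DMS library, with 0.637% to 0.695% against 0.874% to 1.32% at C3350 and 0.450% to 0.475% against 0.684% to 0.871% at C482.

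Across all reactive bases the 2 differences went together. Without C2821 and C2764, the Pearson correlation of AglA minus CHX with DMSO minus no addition over 512 nucleotides was 0.76 (Spearman 0.68), and 381 of them (74.4%) had the same sign. With those cytidines included, Pearson's r was 0.42. The points share the same 4 libraries and their unknown depths, and nucleotides are not replicates, so this is a description only. The standard deviation of AglA minus CHX over the 512 was 0.22, and that of DMSO minus no addition 0.19. Subtracting the second from the first at each nucleotide brought it to 0.14. After that subtraction 2 nucleotides were past 1.5-fold lower (C2821 at -3.90 and A155 of 5.8S at -0.78) and 1 higher (C2764 at 6.17).

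Measured the same way, each drug library was closer to one drug-free library than to the other drug library. The standard deviation over the 512 was 0.13 between AglA and DMSO and 0.14 between CHX and no addition. It was 0.21 between AglA and no addition and 0.23 between CHX and DMSO. Between doses of one drug it was 0.096 for 1.0 and 0.5 mM AglA, 0.085 for 1000 and 50 µM CHX, and 0.14 for 1000 and 10 µM CHX, the last as wide as between 1000 µM CHX and no addition. Since the labels do not state what CHX was dissolved in, drug and solvent cannot be told apart at the marked nucleotides.

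**Figure D2:**
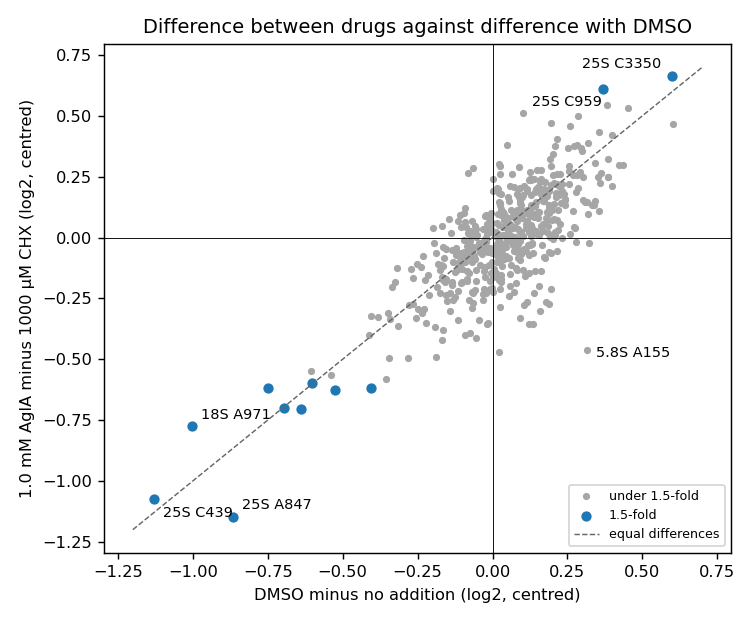
Each point is 1 of the 512 tested nucleotides other than C2764 and C2821, with DMSO minus no addition on the x axis and 1.0 mM AglA minus 1000 µM CHX on the y axis, both as centred log2 differences, and the dashed line marks equal differences. The 11 nucleotides past 1.5-fold lie near that line, and A155 of 5.8S (0.32 and -0.46) lies away from it.

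A155, near the 3′ end of 5.8S rRNA, was thus the only tested base besides C2821 and C2764 past 1.5-fold with the DMSO difference subtracted. It had not passed before. It was at 0.450% with 1.0 mM AglA and 0.584% with CHX, while DMSO had 0.875% and no addition 0.717%. With 0.5 mM AglA it had 0.602%, inside the 0.560% to 0.619% range of the CHX libraries, so its difference from CHX rests on the 1.0 mM library.

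Cytidines and adenosines were shifted apart slightly. Without C2821 and C2764, the median of AglA minus CHX was 0.07 over 131 C and -0.02 over 381 A, and the median of DMSO minus no addition was 0.11 and 0.03. Among C, 87 were above 0 and 44 below, and among A 177 and 204. In the 8 C with a mean rate of 10% or more the median was 0.13, and in the 25 such A it was -0.02. The medians of DMSO minus no addition in these sets were 0.22 and 0.03. The largest drug difference among the 8 C was 0.47, at C1219 of 25S, with 19.5% with AglA and 12.7% with CHX. Among the 25 A the largest was 0.50, at A213 of 25S, with 20.3% and 12.9%. Both were lower in all 3 CHX libraries (11.8% to 14.4% and 12.5% to 13.9%) than in every other DMS library, the lowest of which were 17.96% and 17.95%. They share that order with many of the 574 nucleotides, out of 2485, at which the CHX libraries were lowest.

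Centring on all 514 nucleotides fixes their overall balance near 0, so region medians are relative to that. The medians of the 13 regions of 25S and 18S ranged from -0.07 in the 3′ minor domain of 18S to 0.04 in domain VI of 25S. The 15 tested nucleotides of 5.8S and the 8 of 5S had medians of 0.08 and 0.14, with 12 and 7 of them above 0. In the parts of domain V that hold the E site and the peptidyl transferase centre, 11 nucleotides were tested in each besides C2764 and C2821, and 0 of those were past 1.5-fold, beside 1.95% lower and 0.584% higher over all 514, which sets neither part apart. Their ranges were -0.17 to 0.23 and -0.26 to 0.39.

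**Figure D3:**
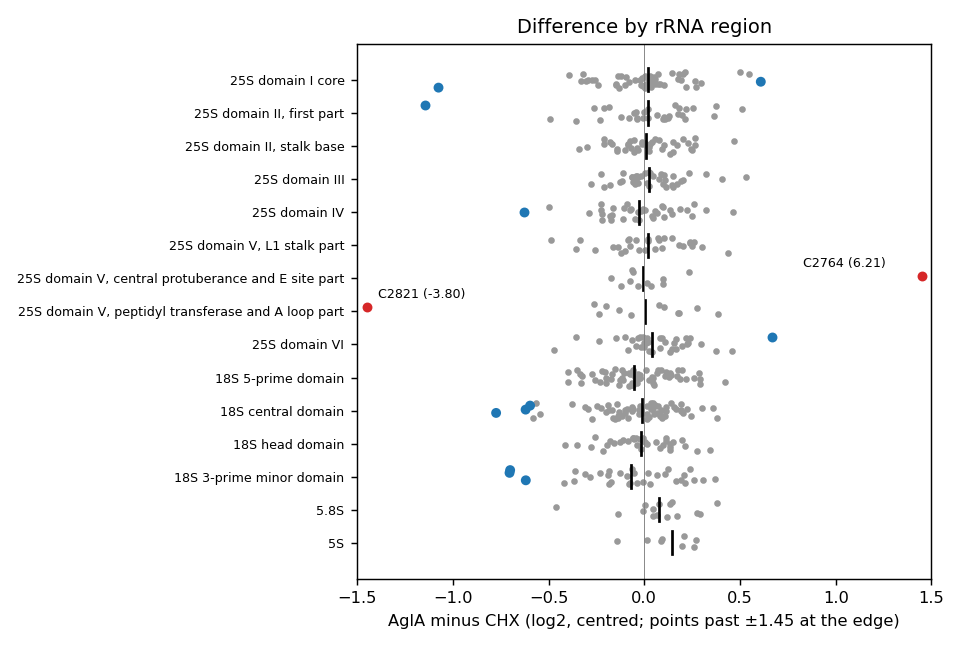
Each point is a tested nucleotide, placed by its rRNA region (rows) and its centred log2 difference, 1.0 mM AglA minus 1000 µM CHX (x axis), with black bars for the medians. Red points are past 1.5-fold and not marked as possibly due to solvent (C2821 at -3.80 and C2764 at 6.21, drawn at the edges), and blue points are past 1.5-fold and marked.

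The neighbours of C2821 and C2764 along the strand were mostly too weakly reactive to be tested. Within 12 nucleotides of C2821, none of the other 24 nucleotides reached the tested rate, and their rates were 0.0406% to 0.265% with AglA and 0.0344% to 0.269% with CHX. Within 12 nucleotides of C2764, only C2772 was tested, and it had 1.60% with AglA and 1.20% with CHX (0.23). Among all 24 neighbours the differences ran from -0.69 to 0.25 around C2821, and from -0.56 to 0.23 around C2764. The lowest value of each window belonged to an adenosine close to the cytidine, A2820 and A2762.

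**Figure D4:**
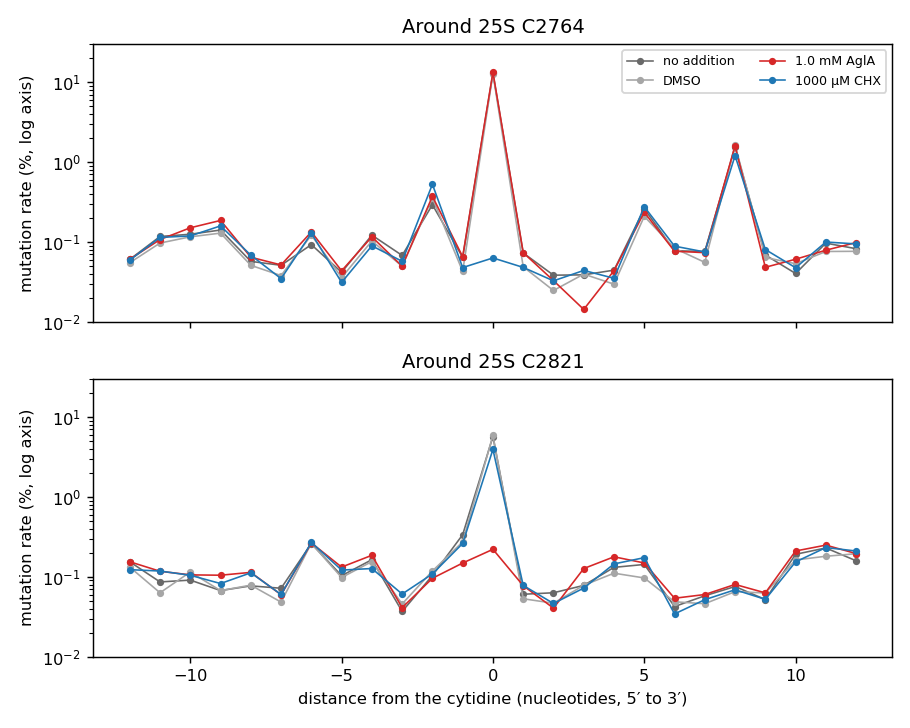
Mutation rate (%, log axis) of each nucleotide within 12 nucleotides of C2764 (upper) and C2821 (lower) of 25S rRNA, by distance along the rRNA, in the libraries with no addition, DMSO, 1.0 mM AglA and 1000 µM CHX. At the centre CHX falls away from the other lines at C2764 (0.0633%) and AglA at C2821 (0.221%), with smaller separations at A2762, 2 nucleotides before C2764, and A2820, 1 before C2821.

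Weakly reactive bases were therefore looked at as well, with bounds chosen after their values had been seen. Of 1081 A and C with a mean rate of at least 0.1% and under 0.5%, 5 were at least 1.5-fold lower with AglA than with CHX (0.463%) and 1 was higher (0.0925%). Of 890 G and U with a mean rate of at least 0.1%, 0 were lower (0%) and 1 was higher (0.112%). No nucleotide outside the tested set was past 2-fold with a rate of 0.5% in either drug library. A2941, C2552 and A2820 of 25S were the 3 largest of the 1081, in that order, and U2875 of 25S was the largest of the 890. All lie in domain V. With the DMSO difference subtracted, A2941, C2552, A2820 and U2875 were at -0.41, 0.576, -0.52 and 0.56, each short of 1.5-fold. Each was also short of it with 1 percentage point added to the rate.

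A2820, the base before C2821 and also part of the peptidyl transferase centre, had 0.149% with AglA and 0.261% with CHX, a difference of -0.69. It had 0.337% with no addition, 0.274% with DMSO and 0.0349% without DMS. The lower doses gave 0.152% with AglA and 0.212% and 0.269% with CHX, so both AglA libraries were below every other DMS library. Without centring the difference was -0.54, short of 1.5-fold.

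U2875, also of the peptidyl transferase centre, was higher with AglA. Uridine is a poor DMS target, and drug-free ribosomes gave 0.304% (no addition) and 0.336% (DMSO), against 0.0305% for RNA not exposed to DMS. AglA gave 0.525% at 1.0 mM and 0.481% at 0.5 mM, against 0.239%, 0.247% and 0.311% with 1000, 50 and 10 µM CHX. Both AglA libraries were above all others, and the difference at 1 mM was 0.73.

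A2941 lies 16 nucleotides after C2925 of the A loop, which holds the end of the A-site tRNA. It had 0.116% with AglA and 0.242% with CHX, a difference of -0.81. With 0.5 mM AglA it had 0.122%, with 50 and 10 µM CHX 0.256% and 0.249%, and without drug 0.340% (no addition) and 0.219% (DMSO). Part of this difference has a counterpart in DMSO minus no addition (-0.40), just under 50% of its size, and the AglA libraries were still below the DMSO one. Its neighbour C2942, which was in the tested set, had 0.923% with 1.0 mM and 0.787% with 0.5 mM AglA, against 1.01% to 1.08% with CHX, 1.33% with DMSO and 1.21% with no addition. The difference at 1 mM was -0.26 and did not reach 1.5-fold.

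A2762, 2 nucleotides before C2764 in the E site part of domain V, was higher with CHX, opposite to C2764. It had 0.528% with 1000 µM CHX, 0.521% with 50 µM and 0.479% with 10 µM. AglA gave 0.373% and 0.341% at 1.0 and 0.5 mM, DMSO 0.357% and no addition 0.293%. All CHX libraries were above all others. The difference at 1 mM, -0.56, was just short of 1.5-fold, and the DMSO difference had the opposite sign (0.28). With the DMSO difference subtracted, A2762 was at -0.84, past 1.5-fold.

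The remaining weak bases past 1.5-fold differed less at other doses or had a counterpart with DMSO. A1633 of 18S (-0.65) and A2255 of 25S, the base before A2256 of helix 69 (-0.60), were also lower with DMSO than with no addition, at -0.48 and -0.57. C2552 of 25S was at 0.447% in the 1.0 mM AglA library and 0.194% in the 1000 µM CHX library (0.74), but at 0.317% in both other CHX libraries, close to DMSO (0.300%). The 0.5 mM AglA library had 0.360% there, so both AglA libraries were above all others, by 1.13-fold. A2519 of 25S had 0.204% with 1000 µM CHX and 0.110% to 0.140% in every other DMS library, including 0.125% with 1.0 mM AglA (-0.59). With the DMSO difference subtracted, A2519 was at -0.73, also past 1.5-fold.

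To see which bases followed the drug at every dose, the 2 AglA libraries were set against the other 5 DMS libraries, and the 3 CHX libraries against the other 4, over the 2485 nucleotides of any base with a mean rate of at least 0.1%. This comparison was added after the data were seen, and doses are not replicates. With no bound on the gap, both AglA libraries were below all others at 75 nucleotides and above at 215. All CHX libraries were below all others at 574 and above at 14. These counts used rates that were not centred. Over the 514 tested nucleotides, library medians were 1.31% to 1.52% with CHX and 1.58% to 1.74% in the other DMS libraries. Both AglA libraries were below all others by at least 1.25-fold at 3 nucleotides (0.121%), namely C2821 (17.8-fold), A2941 (1.80-fold) and A2820 (1.40-fold). They were above all others by that much at 4 (0.161%), led by U2875 (1.43-fold), with A288 of 18S (1.33-fold) and A697 and C205 of 25S (1.29-fold and 1.28-fold).

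For CHX, 1 nucleotide was above all others (0.0402%), A2762 at 1.29-fold, and 10 were below (0.402%). The 10 were led by C2764 (16.5-fold), C959 (1.48-fold) and C482 (1.44-fold). After each rate was divided by its library's median, the CHX count below was 2, C2764 at 13.5-fold and C959 at 1.34-fold. The counts for AglA were then 5 below and 4 above, and 4 were above with CHX. The 4 above with AglA were then U2875, A288 and A1005 of 18S, and G708 of 25S. A697 and C205 were no longer among them. C205 had a mean rate of 0.116% in the DMS libraries and 0.0699% without DMS. C2821, A2941 and A2820 kept the first 3 places below with AglA, and U2875 and A2762 the first places above with AglA and with CHX. C2942 came sixth below with AglA, at 1.21-fold.

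C959 of 25S, in domain II and far from C2764 in sequence, had the second widest separation below with CHX. It had 5.20%, 5.36% and 4.91% with 1000, 50 and 10 µM CHX. The other DMS libraries had 8.27% and 7.94% (AglA at 1.0 and 0.5 mM), 9.48% (DMSO) and 9.21% (no addition). AglA at 1.0 mM gave 1.59 times the rate of CHX at 1000 µM. The difference of 0.51 was under 1.5-fold on the centred scale and past it (0.66) without centring. DMSO minus no addition was 0.10 there.

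**Figure D5:**
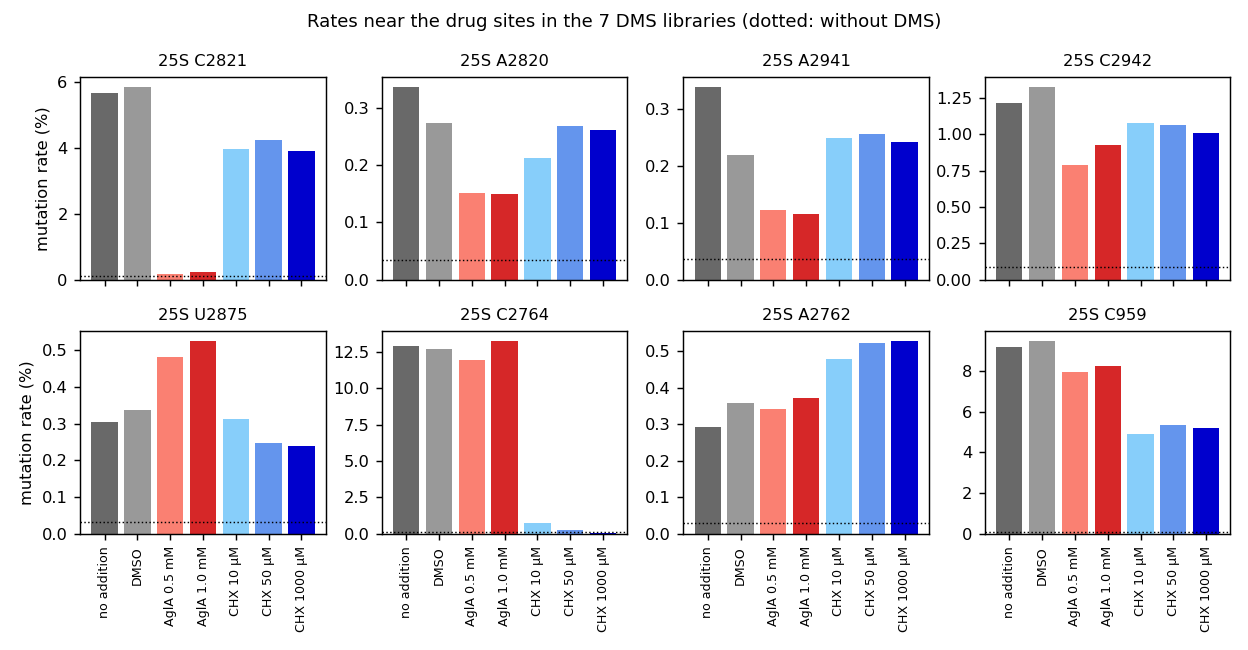
Bars give the mutation rate (%) of 8 nucleotides of 25S rRNA in the 7 DMS libraries, 1 library a bar, each panel with its own axis from 0, and the dotted line is the rate without DMS. AglA bars are the lowest at C2821, A2820, A2941 and C2942 and the highest at U2875, and CHX bars are the lowest at C2764 and C959 and the highest at A2762.

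The listed functional centres held few tested bases, so the count past 1.5-fold in each is to be read against the 1.95% lower and 0.584% higher over all 514. Of 16 listed nucleotides of the peptidyl transferase centre, 6 were tested, and 1 (C2821) was lower and 0 higher past 1.5-fold, with a list median of -0.01 against 0.01 over all 514. A2401 had 27.5% with AglA and 23.9% with CHX (0.05), and A2402 and A2404, which line the entrance of the peptide tunnel, had 1.44% and 1.03% (0.30) and 8.04% and 6.03% (0.26). A2872 was at -0.07 and A2971, the flexible base between the A and P sites, at -0.24. C2764 was the 1 tested of 5 listed in the E site pocket.

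In the A loop, 1 of 5 listed nucleotides was tested, C2925, with 0.979% and 0.762% (0.18). In the sarcin-ricin loop, the docking site of elongation factors, 3 of 12 were tested and ran from -0.10 to 0.01, with 5.35% and 4.77% at A3027, the base that ricin removes. In helix 69, a bridge between the subunits, A2256 and C2257 were at -0.23 and 0.25. The weakly reactive A2259 and A2262 of that helix were at -0.49 and -0.29, and DMSO minus no addition was -0.66 and -0.38 there. A2255, which is not on the list and is described above, was at -0.60. In the decoding centre of 18S, 4 of 5 were tested, with a median of -0.14. A1755, a base that inspects the codon-anticodon helix, had 1.38% and 1.69% (-0.42), and A1756 had 1.55% and 1.60% (-0.19). Of the 1, 3, 2 and 4 tested members of these lists 0 passed 1.5-fold, which at the shares of 1.95% and 0.584% over all tested nucleotides sets none of the lists apart. In the P loop 0 of 2 listed nucleotides were tested.

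Bases that yeast modifies itself can give mutations without DMS. Of 7 listed with a modified pairing edge 4 were tested, and of 5 others 2, with 0 past 1.5-fold, a count too small to differ visibly from the 1.95% and 0.584% over all tested nucleotides. The m1A bases A645 and A2142 of 25S had 87.6% and 56.1% in the library without DMS. They had 86.0% and 56.0% with AglA and 86.1% and 57.0% with CHX, ratios of 0.999 and 0.982. The uncentred log2 differences were -0.0010 and -0.025. On the centred scale the same bases were at -0.15 and -0.17, which is the size of the shift that centring puts on a base whose rate does not depend on DMS. The dimethylated A1781 and A1782 of 18S had 0.680% and 0.554%, and 9.48% and 10.4%, and the acetylated cytidines C1280 and C1773 of 18S had 0.627% and 0.631%, and 1.02% and 1.05%.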

How the data were processed

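Per the labels' protocols, rRNA from drug-treated and DMS-probed ribosomes was fragmented, ligated to a linker, copied with TGIRT-III and amplified. Cutadapt, Bowtie2 and build sacCer3 are listed, without versions or roles, per the submitters' processing notes. The authors deposited 1 table with a fraction per nucleotide and library, the mutation rate, printed here as a percentage. The sources used here state neither filters nor read depth, so the precision of low rates is unknown.

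Rates were taken as log2(rate + 0.001), which shrinks differences at low rates, and centred on each library's median over A and C with a mean of at least 0.5% in the 7 DMS libraries. With 1 library a side, nucleotides were called at 2-fold or 1.5-fold, without a test. The calling step was tried at 2-fold only, on simulated data with larger planted differences and independent noise for each library. The 1.5-fold calls were not simulated. Python 3.11.15, numpy 2.4.6, pandas 2.3.3 and matplotlib 3.10.9 were used.

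Named nucleotides were all past 1.5-fold (up to 15 a direction), tested members of structural lists, A and C within 12 nucleotides of C2821 and C2764, and up to 5 a direction past 2-fold outside the tested set. The comparison, lists and bounds were chosen with earlier results of these data known, and list positions were written from memory, with 2 entries dropped because the table holds another base there. C959, A213, C1219, A155, A1131, A1132 and the weakly reactive bases outside the windows were described after their values were seen. Alternatives were other constants, filters, doses, no centring, background subtraction and solvent subtraction.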

Additional observations from a re-analysis of the deposited data

How the results depend on the processing

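C2821 and C2764 stayed past 2-fold under each alternative run. Other counts depended on the settings. The 2-fold count lower with AglA, 3 as reported, was 1 with 1 percentage point added to the rate, without centring, or with DMSO over no addition subtracted, and the count higher, 1, was 2 after the rate without DMS was subtracted. The 1.5-fold count lower, 10, was 2 with 1 percentage point added or the DMSO difference subtracted, 6 with a filter at 2% and 4 without centring. The count higher, 3, was 1 with 1 percentage point added, a filter at 2% or the DMSO difference subtracted, 9 without a filter, 10 without centring, 6 after subtraction of the rate without DMS, and 5 with the 50 or 10 µM CHX library. The marked count, 11, was 1 with 1 percentage point added, 5 with a filter at 2% and 6 without centring. Among counts of classes set apart, dividing by library medians gave 5 below with AglA in place of 3, 2 below with CHX in place of 10, and 4 above with CHX in place of 1. With the DMSO difference subtracted, 4 of the 11 marked nucleotides past 1.5-fold changed sign, to 0.0066 at A929, 0.23 at A971, 0.13 at A1133 and 0.054 at C439. U2875 was at 0.34 with the 10 µM CHX library. Unknown depth limits all weakly reactive bases. No paired analysis was possible because each condition has 1 library and no replicate numbers.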
